A study of Homo sapiens with 5 samples.

Results

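The genes of mitosis and the G2/M transition were followed across 5 RNA-seq libraries of MDA-MB-231, a human cell line established from a triple-negative breast cancer. The set holds 44 genes named for their function in mitosis, and all 44 were found among the 10596 genes of the table, from 73 transcript rows. The members were chosen with earlier results of these data known. Their counts beside those of all genes therefore describe the set and do not test it. Each gene is represented by its transcript row with the highest mean over the libraries. The table used here covers chromosomes 1 and 10 to 19 and a stretch of 2, and the members lie on 11 of these. The series silenced SET or CIP2A, proteins that inhibit the phosphatase PP2A, or applied OP449, which it describes as an antagonist of SET. Cells received siRNA for 48 h, either a control sequence (siNT) or one directed at SET (siSET) or at CIP2A (siCIP2A). The label of the siCIP2A library itself names no time, and its 48 h come from the treatment protocol. Other cells were treated for 12 h with OP449 at 1 µM or with PBS as its control. Each group is 1 library from 1 cell line, so no difference between conditions has a replicate check. The 48 h libraries differ from the 12 h libraries both in time and in having received siRNA, and these cannot be told apart.

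A dividing cell condenses its chromosomes, attaches them to spindle microtubules through kinetochores, waits for a checkpoint to be satisfied, separates the sister chromatids and then splits. Most of the genes that encode this machinery are transcribed late in the cell cycle and are kept low at other times. Many of their promoters carry a cell cycle genes homology region (CHR), the site of the MuvB complex, which represses them as part of the DREAM complex and activates them together with B-MYB and FOXM1, and CCAAT boxes bound by NF-Y. The RNA level of these genes in a culture therefore usually moves with the share of dividing cells. In bulk RNA, fewer cells in G2 and mitosis and less RNA per cell cannot be told apart.

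Over the gene table the libraries held 3641329 to 5602224 recovered reads, with siSET the shallowest and siCIP2A the deepest, so depth did not separate the 48 h from the 12 h libraries. The silenced genes SET and CIP2A were not analysed here, so the siRNA labels were not checked against their targets. Of the markers of the line, VIM stood between 15670 and 20866 scaled counts and CD44 between 13820 and 20560. Of the epithelial and luminal genes, PGR was listed at 0 in every library and CDH1 stood between 12.9 and 56.7. In contrast, KRT19 stood between 4275 and 5998, ERBB2 between 1049 and 1179 and GATA3 between 133 and 250. The 3 leukocyte markers summed to 0 to 3.56 scaled counts and the 2 endothelial markers to 0 to 1.10, so RNA of those cells was at or near 0. The 3 fibroblast markers summed to 75.9 to 165, nearly all COL1A1, with DCN at 0 in every library, and the sum was highest in siNT and lowest in PBS. Its part in the results was not tested. Values below are scaled counts, the deposited per-transcript signal on a scale common to the libraries, and differences are of log2(value + 1).

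Mitotic genes were lower in the 48 h siRNA libraries than in the 12 h libraries, as a set and in nearly every member. Summed over the 44 genes, the level was 107185 scaled counts in PBS and 106611 in OP449, against 84832 in siNT, 84366 in siSET and 76984 in siCIP2A. The members took 1.71% of the reads in PBS [1.70 to 1.73] and 1.74% in OP449 [1.73 to 1.75]. Their share was 1.36% in siNT [1.35 to 1.37], 1.35% in siSET [1.34 to 1.37] and 1.24% in siCIP2A [1.24 to 1.25], with 95% exact Clopper-Pearson intervals. The control siRNA library thus stood with the siRNA libraries against SET and CIP2A, and the OP449 library with the PBS control. For 42 of the 44 members, all 3 siRNA libraries lay below both 12 h libraries. The same held for 13.8% of the 6093 genes with a mean of at least 50 scaled counts, and the reverse order held for 12.1% of genes and for 0 members. The exceptions were CASC5 and NCAPD3. All 44 members had a mean log2 difference below 0, against 52.2% of all genes, with a median of -0.39 (1.31-fold lower), an SD over members of 0.13 and a range from -0.67 to -0.06. NCAPD3, at -0.06, was above 0 without the OP449 library. The median over all genes was -0.01, and 3.81% of genes lay below the members' median. At least 1.2-fold lower were 39 members and 10.4% of all genes. At least 1.2-fold higher were 0 members and 9.06% of all genes.

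**Figure D1:**
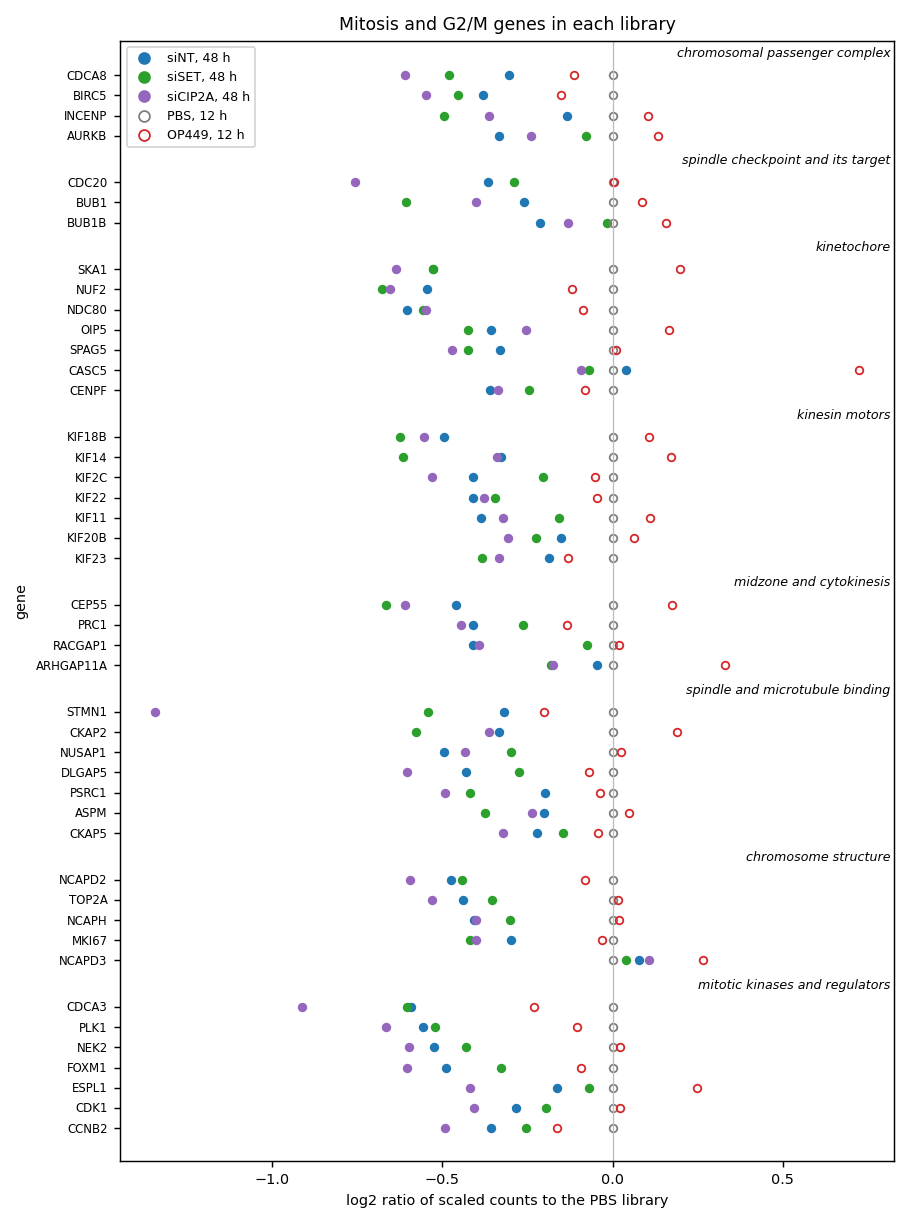
Log2 ratio of each gene's scaled counts to the PBS library (horizontal axis, no units), 1 row per gene, grouped by function and ordered by the difference between times. Filled points are the 48 h siRNA libraries and open points the 12 h libraries. For 42 of 44 genes all filled points lie left of both open points, with CASC5 and NCAPD3 as the exceptions.

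The difference between times was modest in size and, for most members, larger than the spread inside each time. Between the lowest 12 h value and the highest 48 h value of a member, the median gap was 1.18-fold over the 42 members without overlap, from 1.01-fold to 1.44-fold. The highest and lowest of the 3 siRNA libraries differed by a median of 1.14-fold, and PBS and OP449 by 1.07-fold. In 40 of 44 members the fold between times exceeded the fold between the highest and lowest siRNA library. The same count was not made over all genes, so it has no background share. The margin was narrow in BUB1B (1.147-fold against 1.146-fold) and CDC20 (1.39-fold against 1.38-fold). These 5 libraries carry 5 treatments and are not replicates, and 3 against 2 cannot give a two-sided permutation p below 0.2. In edgeR's quasi-likelihood test of the siRNA against the 12 h libraries, run on recovered reads and added after seeing the data, 0 of 6093 genes had a Benjamini-Hochberg adjusted p under 0.05, and the smallest was 0.43. At an unadjusted p under 0.05 there were 487 genes (7.99%), of which 239 (3.92%) were lower in the siRNA libraries and 248 (4.07%) higher. Of the members, 38 were among those lower and 0 among those higher.

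**Figure D2:**
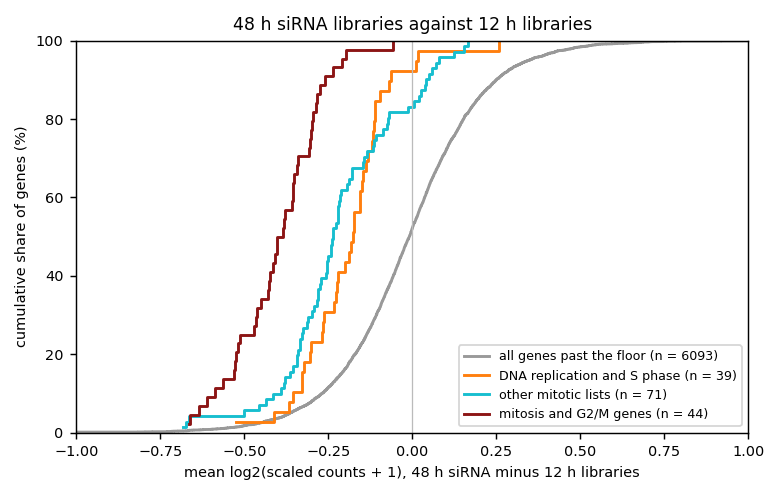
Cumulative share of genes (vertical axis, %) by the mean log2(scaled counts + 1) of the 48 h siRNA libraries minus that of the 12 h libraries (horizontal axis), for the 44 mitosis and G2/M genes, 71 other mitotic genes, 39 DNA replication genes and all 6093 genes past the floor. The curve of the 44 genes lies wholly left of 0 with a median of -0.39, against -0.24, -0.18 and -0.01 for the other curves.

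The promoters of the members were searched for the CHR and CCAAT elements named above. RefSeq windows on GRCh38.p14, from 250 bases before to 50 bases after the transcription start, were at hand for 40 members. BIRC5, CASC5, RACGAP1 and FOXM1 had no entry. Both strands were searched for the CHR element TTTGAA and its form TTCGAA, and for CCAAT. No match of the TTTGAA form is also one of TTCGAA. The 8 promoters below were chosen to show well-known CHR promoters (PLK1, CCNB2, CDC20), members with large differences between times (CDCA3, CEP55), the head-to-head pair NUSAP1 and OIP5, and the member with the smallest difference (NCAPD3). Capitals mark the matches, and TTCAAA and ATTGG are TTTGAA and CCAAT read on the other strand.
PLK1 promoter, chr16:23678639-23678938, plus strand: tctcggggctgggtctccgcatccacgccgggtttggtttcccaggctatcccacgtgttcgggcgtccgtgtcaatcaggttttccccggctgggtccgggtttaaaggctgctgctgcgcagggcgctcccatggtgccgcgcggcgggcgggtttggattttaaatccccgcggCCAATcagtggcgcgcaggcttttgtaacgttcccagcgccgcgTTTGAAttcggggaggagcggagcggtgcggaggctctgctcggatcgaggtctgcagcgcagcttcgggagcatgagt
CCNB2 promoter, chr15:59104896-59105195, plus strand: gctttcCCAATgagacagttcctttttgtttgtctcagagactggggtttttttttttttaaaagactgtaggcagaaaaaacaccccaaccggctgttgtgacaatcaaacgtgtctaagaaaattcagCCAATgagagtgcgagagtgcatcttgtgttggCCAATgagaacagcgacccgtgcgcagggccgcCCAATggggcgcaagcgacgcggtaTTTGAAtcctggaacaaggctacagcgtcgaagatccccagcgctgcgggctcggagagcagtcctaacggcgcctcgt
CDC20 promoter, chr1:43358731-43359030, plus strand: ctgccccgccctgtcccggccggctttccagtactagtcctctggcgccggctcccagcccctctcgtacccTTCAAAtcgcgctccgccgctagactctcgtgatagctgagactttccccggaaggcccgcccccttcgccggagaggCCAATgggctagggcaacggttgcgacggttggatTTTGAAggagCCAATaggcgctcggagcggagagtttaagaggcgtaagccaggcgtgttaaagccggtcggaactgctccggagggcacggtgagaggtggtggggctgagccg
CDCA3 promoter, chr12:6851237-6851536, minus strand: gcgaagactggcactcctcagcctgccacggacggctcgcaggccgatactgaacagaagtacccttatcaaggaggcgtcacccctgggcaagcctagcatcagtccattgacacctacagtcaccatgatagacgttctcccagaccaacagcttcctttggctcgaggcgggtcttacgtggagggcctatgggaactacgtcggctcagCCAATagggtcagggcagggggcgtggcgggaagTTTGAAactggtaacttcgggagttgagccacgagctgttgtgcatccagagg
CEP55 promoter, chr10:93496362-93496661, plus strand: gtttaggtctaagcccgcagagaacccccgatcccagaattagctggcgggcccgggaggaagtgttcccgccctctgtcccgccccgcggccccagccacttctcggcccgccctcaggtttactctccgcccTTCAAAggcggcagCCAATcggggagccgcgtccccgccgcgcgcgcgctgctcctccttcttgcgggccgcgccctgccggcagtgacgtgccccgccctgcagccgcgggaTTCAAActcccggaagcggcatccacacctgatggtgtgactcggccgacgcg
NUSAP1 promoter, chr15:41332631-41332930, plus strand: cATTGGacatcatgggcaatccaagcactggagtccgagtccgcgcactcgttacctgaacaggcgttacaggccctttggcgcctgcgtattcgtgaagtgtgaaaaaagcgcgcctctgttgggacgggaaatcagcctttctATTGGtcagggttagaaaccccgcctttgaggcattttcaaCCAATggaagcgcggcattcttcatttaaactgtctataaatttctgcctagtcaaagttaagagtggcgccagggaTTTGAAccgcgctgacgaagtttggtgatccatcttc
OIP5 promoter, chr15:41332542-41332841, minus strand: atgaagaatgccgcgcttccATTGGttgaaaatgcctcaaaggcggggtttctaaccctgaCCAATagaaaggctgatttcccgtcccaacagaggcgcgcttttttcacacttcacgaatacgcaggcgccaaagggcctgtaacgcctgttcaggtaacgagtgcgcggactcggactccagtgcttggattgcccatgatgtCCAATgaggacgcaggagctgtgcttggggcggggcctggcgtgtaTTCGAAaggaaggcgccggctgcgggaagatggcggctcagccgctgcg
NCAPD3 promoter, chr11:134225412-134225711, minus strand: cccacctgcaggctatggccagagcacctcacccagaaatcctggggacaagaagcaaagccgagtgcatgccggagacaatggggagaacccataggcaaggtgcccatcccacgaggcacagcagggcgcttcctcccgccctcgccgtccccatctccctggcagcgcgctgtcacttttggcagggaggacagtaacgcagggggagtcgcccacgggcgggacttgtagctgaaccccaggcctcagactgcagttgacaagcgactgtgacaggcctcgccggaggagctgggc
In PLK1 and CCNB2 the element TTTGAA begins 29 bases before the start, with a CCAAT box beginning 73 bases before it in PLK1 and 54 bases before it in CCNB2. In CDCA3 it begins 3 bases before the start, 34 bases after the first base of a CCAAT box. NCAPD3 holds neither.

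Either CHR form was present in 32 of the 40 member promoters (80.0%), against 16.6% of all 27305 promoters of the same length. The form TTTGAA was in 28 member promoters and in 15.4% of all, and TTCGAA in 5 and in 1.45%. A CCAAT box was in 31 (77.5%), against 35.7%, and a CHR form together with a CCAAT box in 27 (67.5%), against 6.58%. Neither was found in 4 members, ARHGAP11A, CKAP2, KIF2C and NCAPD3, against 54.3% of all promoters. The E2F-type word TTTCCCGC was in 0 member promoters and in 1.66% of all, and TTTGGCGC in 3 (NUSAP1, OIP5 and STMN1) and in 0.659%. The windows of NUSAP1 and OIP5 share 211 bases, so matches in that stretch, with this word among them, are counted for both genes. In 28 members the CHR form began within 100 bases before or 50 bases after the start. The median difference between times was -0.40 for the 32 members with a CHR form and -0.37 for the 8 without, whose range ran from -0.63 (STMN1) to -0.06 (NCAPD3). For the CCAAT box the order was the other way, at -0.38 for the 31 members with it and -0.41 for the 9 without. These differences between medians were not tested. A match is a description of the letters and not a shown binding site, and members were named for functions that are known to go with these elements.

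**Figure D3:**
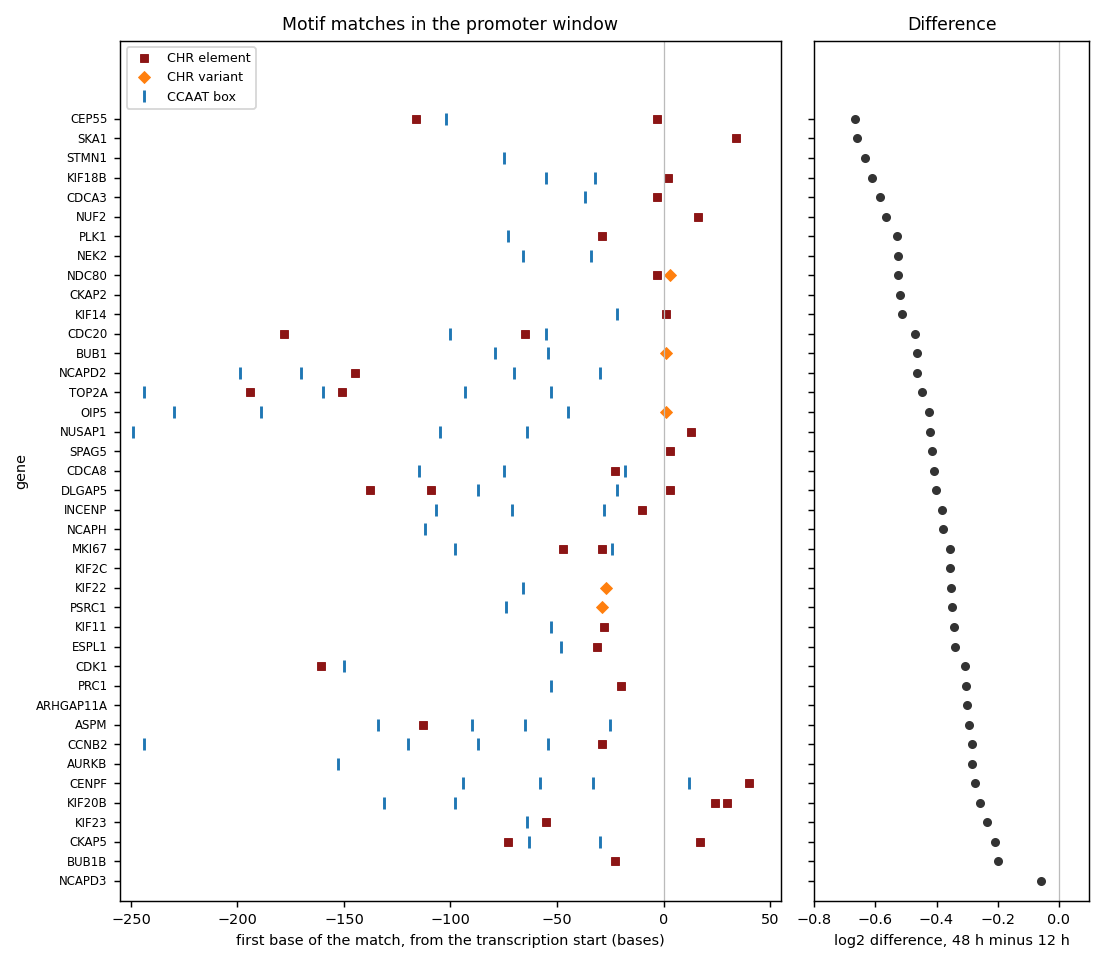
Left, position of each match from the transcription start (horizontal axis, bases) in 40 member promoters, with squares for TTTGAA, diamonds for TTCGAA and bars for CCAAT on either strand. Right, the log2 difference between 48 h siRNA and 12 h libraries of the same genes, in the same order. In 28 genes a CHR form begins within 100 bases before or 50 bases after the start, and in 29 a CCAAT box lies in the 120 bases before it.

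All 4 genes of the chromosomal passenger complex were lower in each siRNA library than in both 12 h libraries, with a median difference of -0.38. This complex of AURKB, INCENP, BIRC5 and CDCA8 corrects faulty attachments of chromosomes to the spindle. Its summed level was 97.5% of the PBS level in OP449, against 81.4% in siNT, 75.7% in siSET and 72.2% in siCIP2A. CDCA8, which encodes borealin, the subunit that places the complex at the centromere, stood at 1672 scaled counts in PBS and 1546 in OP449, against 1355 in siNT, 1197 in siSET and 1096 in siCIP2A. AURKB, its kinase, stood at 988 scaled counts in PBS and 1083 in OP449, against 785 in siNT, 936 in siSET and 838 in siCIP2A. The differences were -0.41 for CDCA8 and -0.28 for AURKB, and the siSET value of AURKB came within 1.06-fold of PBS. BIRC5 (survivin) was at -0.38 and the scaffold INCENP at -0.38. On hg19 the transcript of AURKB spans chromosome 17 from 8108050 to 8113883.

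All 3 genes of the spindle checkpoint and its target stood lower in every siRNA library, and the signalling kinase and the target of the checkpoint differed more than BUB1B did. CDC20, the activator of the anaphase-promoting complex that the checkpoint holds back, stood at 2602 scaled counts in PBS and 2610.1 in OP449, against 2021 in siNT, 2128 in siSET and 1541 in siCIP2A, 1.39-fold lower in the siRNA libraries at a log2 difference of -0.47. Its siCIP2A value was the lowest of all. BUB1, the kinase that recruits checkpoint proteins to kinetochores, was at -0.46. BUB1B, which encodes the inhibitor BUBR1, stood at 1306 scaled counts in PBS and 1454 in OP449, against 1127 in siNT, 1292 in siSET and 1193 in siCIP2A. Its groups barely parted, since siSET was 1.01-fold below PBS, and its difference of -0.20 was -0.12 without the OP449 library. The CDC20 transcript spans chromosome 1 from 43824626 to 43828871 on hg19.

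Of 7 kinetochore genes 6 were without overlap (median -0.43), and SKA1 and the subunits of the NDC80 complex had the lower ratios. Kinetochores are the protein plates on centromeres that hold microtubules. SKA1, a subunit of the SKA complex that keeps kinetochores on shrinking microtubule ends, stood at 495 scaled counts in PBS and 568 in OP449, against 344 in siNT, 344 in siSET and 319 in siCIP2A. It was 1.58-fold lower (-0.66), with the widest gap of any member, 1.44-fold between its lowest 12 h and highest siRNA value. NUF2 and NDC80, partners in the main microtubule-binding complex, were at -0.56 and -0.53. SPAG5 (astrin) was at -0.41, and OIP5, a subunit of the complex that helps load the centromeric histone, at -0.43 from as few as 82 reads in a library. CENPF, a large protein of the outer kinetochore, stood at 6839.9 scaled counts in PBS and 6469.8 in OP449, against 5331 in siNT, 5773 in siSET and 5418 in siCIP2A, at -0.27. On hg19 the transcript of SKA1 spans chromosome 18 from 47901392 to 47920534.

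CASC5, now named KNL1, the scaffold on which BUB1 and BUB1B are placed, did not follow the division between times. It stood at 452 scaled counts in PBS and 747 in OP449, against 465 in siNT, 431 in siSET and 424 in siCIP2A. The OP449 library alone was high, and PBS lay among the siRNA libraries. The difference between times of -0.40 rested on that library, at -0.04 without OP449 and -0.76 without PBS. Both transcript rows of the gene held the same values.

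All 7 kinesin genes were without overlap between the times, with a median of -0.35. Kinesins are motors that walk along or take apart microtubules. KIF18B, which helps shorten astral microtubules, stood at 764 scaled counts in PBS and 823 in OP449, against 542 in siNT, 496 in siSET and 520.1 in siCIP2A, 1.53-fold lower at -0.61. KIF23, the motor of the centralspindlin complex in the midzone, stood at 1951 scaled counts in PBS and 1782 in OP449, against 1712 in siNT, 1495 in siSET and 1549 in siCIP2A, at -0.24. KIF14, needed late in cytokinesis, was at -0.51. KIF11, the target of several mitotic inhibitors, which slides spindle poles apart, was at -0.34, and the microtubule depolymerase KIF2C (MCAK) at -0.35. KIF22 and KIF20B were at -0.35 and -0.26. Over the group the level was 101% of the PBS level in OP449, against 80.1% in siNT, 81.0% in siSET and 76.6% in siCIP2A. The KIF18B transcript spans chromosome 17 from 43003449 to 43025082 on hg19.

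The 4 genes of the midzone and of cytokinesis, each without overlap (median -0.30), held the member with the largest difference. CEP55, a midbody protein that recruits the machinery of abscission, stood at 2428 scaled counts in PBS and 2739 in OP449, against 1765 in siNT, 1531 in siSET and 1591 in siCIP2A. It was 1.59-fold lower in the siRNA libraries, at -0.67, with OP449 the highest and siSET the lowest. PRC1, which bundles antiparallel microtubules of the midzone, was at -0.30, and RACGAP1, the partner of KIF23 in centralspindlin, at -0.30. ARHGAP11A stood at 1346 scaled counts in PBS and 1693 in OP449, against 1302 in siNT, 1187 in siSET and 1193 in siCIP2A. The siNT and PBS values of ARHGAP11A were 1.03-fold apart, and its difference of -0.30 was -0.13 without OP449 and -0.46 without PBS. On hg19 the transcript of CEP55 spans chromosome 10 from 95256389 to 95288847.

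The 7 spindle and microtubule-binding genes were without overlap (median -0.40), and STMN1 stood out in the siCIP2A library. STMN1 encodes stathmin, a phosphorylated protein that binds tubulin and destabilizes microtubules. Its values were 7732 scaled counts in PBS and 6727 in OP449, against 6204 in siNT, 5312 in siSET and 3049.8 in siCIP2A. The siCIP2A library was 2.03-fold below siNT, with siSET between them, and OP449 stood below PBS. The difference between times was -0.63, and -0.33 without siCIP2A. CKAP5 (ch-TOG), a microtubule polymerase, stood at 6435 scaled counts in PBS and 6242 in OP449, against 5516 in siNT, 5816 in siSET and 5146 in siCIP2A, at -0.21. ASPM, a spindle pole protein, was at -0.30, NUSAP1 at -0.42, DLGAP5 (HURP), which stabilizes kinetochore fibres, at -0.40, CKAP2 at -0.52 and PSRC1 at -0.35. The STMN1 transcript spans chromosome 1 from 26226609 to 26232993 on hg19.

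Within chromosome structure, the condensin genes NCAPD2 and NCAPD3 lay at opposite ends. Condensins are ring complexes that compact chromosomes, and NCAPD2 and NCAPH belong to condensin I and NCAPD3 to condensin II. NCAPD2 stood at 3504 scaled counts in PBS and 3316 in OP449, against 2523 in siNT, 2581 in siSET and 2319 in siCIP2A, 1.38-fold lower at -0.46. NCAPD3 stood at 1829.6 scaled counts in PBS and 2200.4 in OP449, against 1931 in siNT, 1882 in siSET and 1969 in siCIP2A. PBS was the lowest library for NCAPD3, so the groups overlapped, and its difference of -0.06 was 0.07 without OP449 and -0.19 without PBS. NCAPH was at -0.38. TOP2A, the topoisomerase that untangles sister chromatids, stood at 9923 scaled counts in PBS and 10029 in OP449, against 7312 in siNT, 7765 in siSET and 6876 in siCIP2A. MKI67, the gene of the proliferation marker Ki-67 that coats mitotic chromosomes, stood at 12971 scaled counts in PBS and 12692 in OP449, against 10545 in siNT, 9696 in siSET and 9831 in siCIP2A. Both were lower in every siRNA library, at -0.45 and -0.36. On hg19 the transcript of NCAPD3 spans chromosome 11 from 134022337 to 134094426 and that of MKI67 chromosome 10 from 129894927 to 129924468.

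All 7 mitotic kinases and regulators were at least 1.2-fold lower and without overlap (median -0.43). CDCA3, a trigger of mitotic entry that helps degrade the inhibitory kinase WEE1, stood at 798 scaled counts in PBS and 680.2 in OP449, against 529.7 in siNT, 525 in siSET and 424 in siCIP2A, at -0.59. The polo-like kinase PLK1 was at -0.53 and the centrosomal kinase NEK2 at -0.53, each without overlap. FOXM1, the transcription factor that activates this programme in G2, was at -0.43, and ESPL1, the separase that cuts cohesin, at -0.34, which was -0.22 without OP449. CDK1, the kinase that drives entry into mitosis, was at -0.31. CCNB2, a B-type cyclin and partner of CDK1, stood at 1070.1 scaled counts in PBS and 956 in OP449, against 836 in siNT, 898 in siSET and 761 in siCIP2A, at -0.29. This group had the lowest level in siNT, 74.97% of PBS, with 80.0% in siSET and 67.8% in siCIP2A. On hg19 the transcript of CDCA3 spans chromosome 12 from 6957972 to 6960456 and that of PLK1 chromosome 16 from 23690201 to 23701688.

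**Figure D4:**
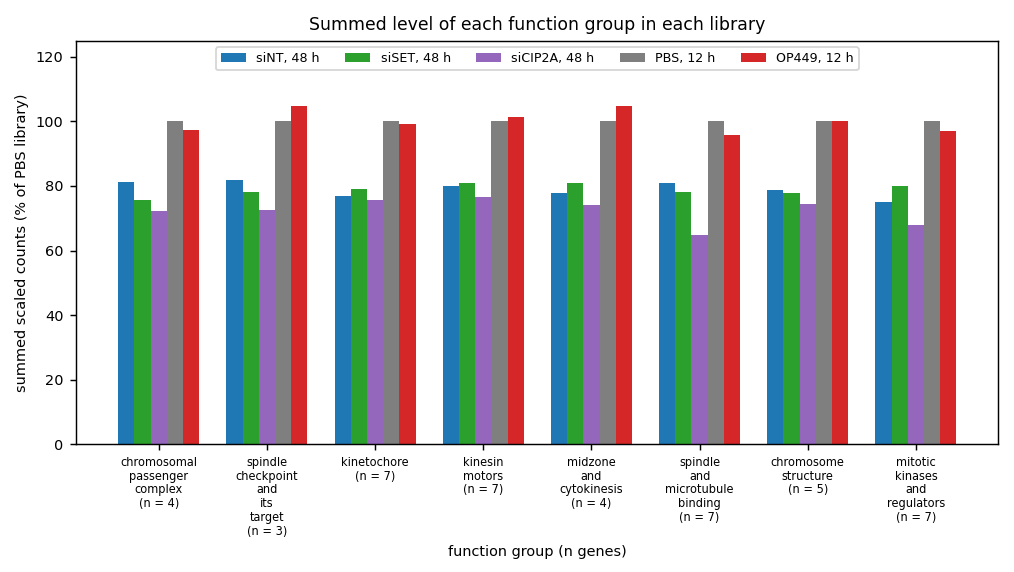
Summed scaled counts of each function group as a percentage of the PBS library (vertical axis, from 0), 1 bar per library. In all 8 groups the 3 siRNA libraries stand between 64.7% and 81.8% and OP449 between 95.9% and 105%.

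Per kilobase of transcript, over the 43 members with a length in GENCODE, the level averaged over libraries spanned from 66.2 scaled counts per kb for CASC5 to 3859.7 for STMN1. Division by length takes reads as even along a transcript, which was not checked for this RNA reverse transcribed with oligo-dT. Next below STMN1 were TOP2A at 1456, CDC20 at 1302, NUSAP1 at 1265 and CDK1 at 1018. KIF14, ESPL1, OIP5 and SKA1 were the low members after CASC5, at 124 to 143. SKA1 and STMN1, near opposite ends of this order, were both among the members with the largest differences between times.

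The controls siNT and PBS were also set against each other, without the treated libraries. siNT was at least 1.2-fold lower than PBS for 32 members, against 12.4% of 6076 genes, and at least 1.2-fold higher for 0, against 11.7%. For 41 members the 95% exact counting interval of the ratio lay below equality, against 17.6% of genes. The median log2 fold was -0.36, beside -0.00 over all genes, and 42 members were below 0, against 51% of genes. Brackets hold that interval on the log2 scale. The lowest were NDC80 at -0.60 [-0.75 to -0.46], CDCA3 at -0.59 [-0.77 to -0.42] and PLK1 at -0.56 [-0.67 to -0.44]. At the other end stood NCAPD3 at 0.08 [-0.02 to 0.18], CASC5 at 0.04 [-0.17 to 0.24] and ARHGAP11A at -0.05 [-0.17 to 0.07]. Counting intervals compare 2 libraries, cover counting error only and do not cover variation between cultures. Against the same PBS library, siSET was at least 1.2-fold lower for 29 members (16.2% of genes) and below 0 on the log2 scale for 43 (48.7%), with the interval below equality for 38 (19.3%). siCIP2A was at least 1.2-fold lower for 37 (14% of genes) and below 0 for 43 (47.5%), with the interval below equality for 41 (20.4%). These comparisons share PBS and are given side by side only.

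Within the 48 h libraries, siSET and siNT held the set at nearly the same level, with single members to either side. The median log2 fold of siSET against siNT was 0.02, beside 0.01 over all genes, with 21 members below 0 (47.9% of genes) and 23 above. At least 1.2-fold lower were 3 members, against 16.5% of 6084 genes, and higher 1, against 15.9%. The counting interval lay below equality for 10 members and above it for 12, each against 19.8% of genes. The 3 lower members were INCENP at -0.36 [-0.51 to -0.21], BUB1 at -0.34 [-0.45 to -0.24] and KIF14 at -0.29 [-0.47 to -0.11]. The highest were RACGAP1 at 0.33 [0.21 to 0.46], AURKB at 0.25 [0.09 to 0.42] and KIF11 at 0.23 [0.12 to 0.34]. AURKB and INCENP of the passenger complex lay on opposite sides of 0, as did RACGAP1 and KIF23 (-0.20 [-0.32 to -0.07]) of centralspindlin. These are single genes of a set whose 1.2-fold counts were below the shares over all genes. Against PBS, siSET was at -0.08 for AURKB, -0.49 for INCENP, -0.08 for RACGAP1 and -0.38 for KIF23. Each of these was below 0 against PBS, as were 43 of the 44 members. With siNT left out, siSET stood above siCIP2A for AURKB (936 against 838 scaled counts) and RACGAP1 (1767 against 1420). It stood below siCIP2A for INCENP (919 against 1007) and KIF23 (1495 against 1549). The cause was not tested.

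The siCIP2A library was somewhat lower than siNT across the set. The median log2 fold was -0.11, beside 0.02 over all genes, and 33 of 44 members were below 0, against 47.3% of 6102 genes. At least 1.2-fold lower were 5 members, against 13.7% of genes, and higher 0, against 15.9%, so by that measure the members were not called more often than other genes. The counting interval lay below equality for 22 members, against 20.2% of genes, and above it for 0, against 21.3%. Of the 3 siRNA libraries, siCIP2A was the lowest for 22 members, against 31.5% of 6093 genes. STMN1 had the largest difference, at -1.02 [-1.09 to -0.96] from 2762 and 5235 reads, and its 4 transcript rows, which share reads, ran from -1.04 to -1.02. CDC20 followed at -0.39 [-0.49 to -0.29], CDCA3 at -0.32 [-0.52 to -0.12], CDCA8 at -0.30 [-0.43 to -0.18] and PSRC1 at -0.29 [-0.49 to -0.10]. The highest were OIP5 at 0.10 [-0.25 to 0.46], AURKB at 0.10 [-0.06 to 0.25] and BUB1B at 0.08 [-0.05 to 0.21], each with an interval that holds 0. Without STMN1 the summed level of the other members was 74.3% of PBS in siCIP2A, 79.1% in siNT and 79.5% in siSET.

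After 12 h of OP449 the set stood at its PBS level. The median log2 fold of OP449 against PBS was 0.02, the same as over all genes, with 25 members above 0 and 19 below, against 46.3% of genes below. At least 1.2-fold lower were 0 members, against 11.5% of 6096 genes, and higher 3, against 14.3%. The interval lay below equality for 9 members (16.9% of genes) and above it for 11 (19.3%). CASC5 had the largest ratio of any member, 0.72 [0.54 to 0.91], from 452 scaled counts in PBS and 747 in OP449. ARHGAP11A followed at 0.33 [0.22 to 0.45] and NCAPD3 at 0.27 [0.17 to 0.37]. The lowest were CDCA3 at -0.23 [-0.40 to -0.07], STMN1 at -0.20 [-0.25 to -0.15] and CCNB2 at -0.16 [-0.30 to -0.02].

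**Figure D5:**
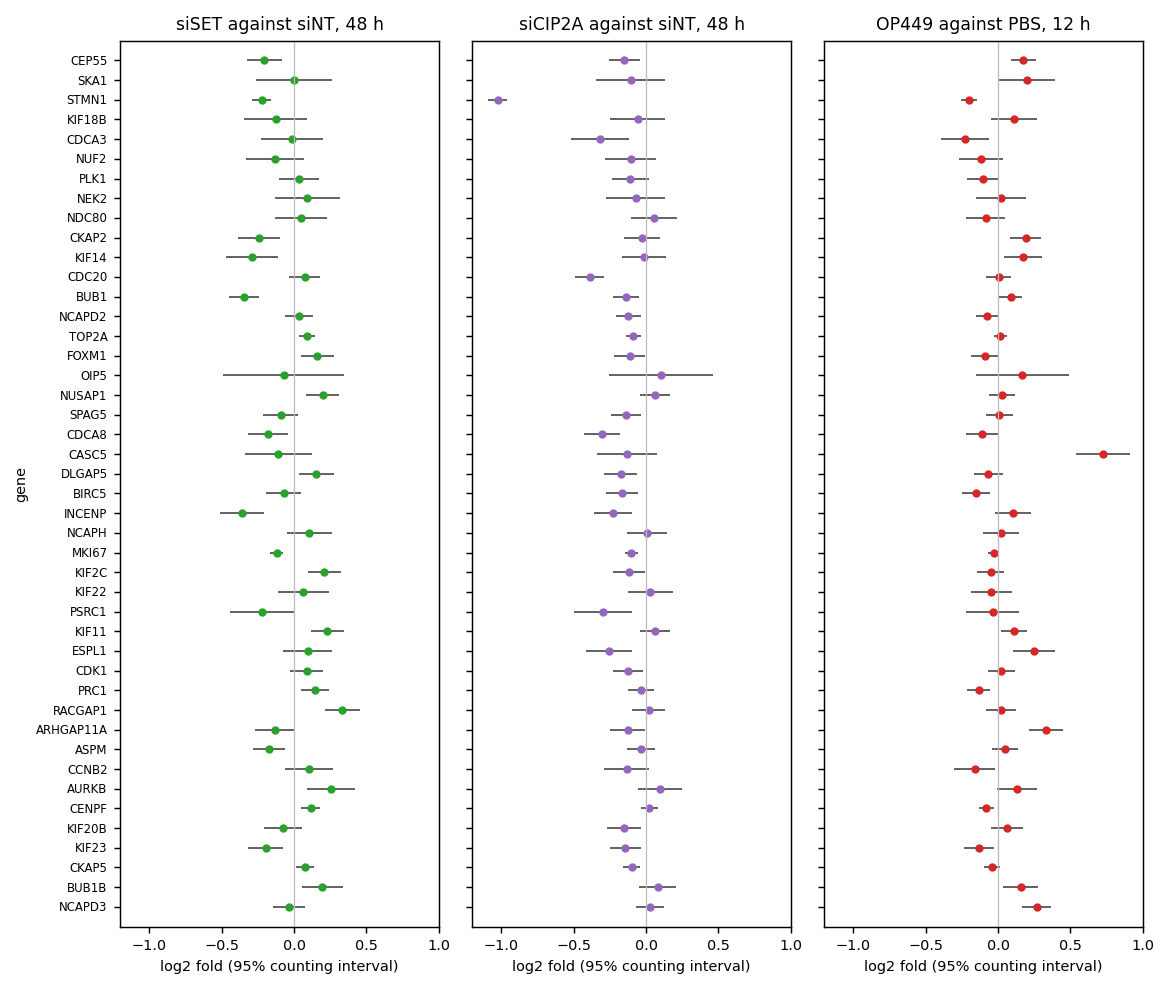
Log2 fold of each member (points) with its 95% exact counting interval (lines) for siSET against siNT, siCIP2A against siNT and OP449 against PBS, ordered by the difference between times. Most points lie near 0 in each panel, with STMN1 at -1.02 in siCIP2A and CASC5 at 0.72 in OP449 as the farthest.

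Other genes of cell division were read from lists of 86 further mitotic genes, 71 of them measured and past the floor. In 41 of the 71 the siRNA libraries lay below both 12 h libraries and in 1 above, against 13.8% and 12.1% of all genes, and the median difference was -0.24. Of 19 kinetochore and checkpoint genes 14 were below, with a median of -0.25. CENPA, the histone that marks centromeres, stood at 456 scaled counts in PBS and 403 in OP449, against 308 in siNT, 241 in siSET and 261 in siCIP2A, a difference of -0.67, and its siSET value was the lowest. SPC24, a further NDC80 complex subunit, was at -0.50, SKA3 at -0.46 and SKA2 at -0.38. Of 24 spindle and cytokinesis genes 16 were below (median -0.24), led by FAM64A at -0.43, TROAP at -0.38, the gamma-tubulin gene TUBG1 at -0.36 and STIL at -0.36. The groups of FAM64A barely parted, with 393.5 scaled counts in siNT and 394.2 in OP449, and its lowest value was 265 in siCIP2A. Of 9 chromatin and cohesion genes 5 were below (median -0.24). The histone chaperone gene ANP32E was at -0.68, the histone gene H2AFX at -0.66, the nuclear lamina gene TMPO at -0.41 and CDCA5, the cohesin protector sororin, at -0.28. ANP32E stood at 2553 scaled counts in PBS and 2766 in OP449, against 2360 in siNT, 1192 in siSET and 1615 in siCIP2A. Its siNT value thus lay nearer to PBS than to the other siRNA libraries. Of 19 G2/M kinase, cyclin and anaphase-promoting complex genes 6 were below (median -0.18). These were led by the ubiquitin-conjugating enzyme gene UBE2S at -0.39, with CDKN3 at -0.34 and CKS1B at -0.34, whereas GSG2 (haspin), at -0.32, overlapped between times.

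Genes of DNA replication and S phase differed in the same direction with smaller sizes. Of 39 measured, 22 lay below both 12 h libraries in every siRNA library and 1 above, against 13.8% and 12.1% of all genes. The median was -0.18, beside -0.39 for the mitotic members. Their summed level was 88.5% of PBS in siNT, 89.2% in siSET, 84.3% in siCIP2A and 100.2% in OP449. The largest differences were CLSPN, a checkpoint mediator, at -0.52, the flap endonuclease gene FEN1 at -0.41, the licensing factor gene CDT1 at -0.37 and the primase gene PRIM1 at -0.35. Single libraries weighed on some of these. CLSPN stood at 1077 scaled counts in OP449, against 747 in PBS and 678 in siNT. FEN1 stood at 1221 in siCIP2A, against 1801 in siNT and 1772 in siSET. CDT1 stood at 421 in siNT, near its 450 in PBS. Differences without 1 library were not computed for this list. The difference between the lists was not tested. Of 11 genes of the DREAM and MuvB regulators, which include the complex that binds CHR elements, 2 (18.2%) were below and 1 above, with a median of -0.08. These counts were near the shares of 13.8% and 12.1% over all genes. The 2 below were E2F8 at -0.49 and E2F2 at -0.37. LIN9 and LIN52 of the MuvB core, at -0.27 and -0.22, overlapped between times.

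For 6 members the representative transcript starts within 1000 bases of a gene on the other strand that is transcribed away from it. OIP5 and NUSAP1 are such a pair on chromosome 15 of hg19, with starts at 41624819 and 41624926, 107 bases apart. Their promoter windows shown above share 211 bases on GRCh38.p14. OIP5 stood at 188 scaled counts in PBS and 211 in OP449, against 147 in siNT, 140.3 in siSET and 158 in siCIP2A. NUSAP1 stood at 2407 scaled counts in PBS and 2450.3 in OP449, against 1707 in siNT, 1957 in siSET and 1781 in siCIP2A. Their differences between times were -0.43 and -0.42, at mean levels of 137 and 1265 scaled counts per kb. METTL4, a methyltransferase-like gene with a start 21 bases from that of NDC80, stood at 356 scaled counts in PBS and 389 in OP449, against 303 in siNT, 258 in siSET and 319 in siCIP2A, below both 12 h libraries in every siRNA library at -0.35. MRPL51, 827 bases from NCAPD2, was at -0.09, USP5, 829 bases from CDCA3, at 0.04, and VPS26B, 135 bases from NCAPD3, at 0.07. Those 3 neighbours overlapped between the times. With the use of strand in counting not given in the sources used here, reads where opposite genes overlap cannot be assigned.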

How the data were processed

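RNA was reverse transcribed with oligo-dT and sequenced on an Illumina GAII, per the labels' protocols. The authors deposited 1 signal value per RefSeq transcript and library (scaled counts), normalized to a common scale by a method not given in the sources used here. Per the submitters' processing notes, hg19, CASAVA and Bowtie 1.0.0 were used, with no role named. Division by the smallest value above 0 of a library gave whole numbers for 100% of values (tolerance 0.001), and these were taken as its reads. A read was worth 1.10 to 1.71 scaled counts. The table used here held 16383 rows on chromosomes 1, 2 and 10 to 19, and 15 symbols turned into dates were restored through their transcripts. Transcripts of a gene share reads, and 19 members had several rows.

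Differences are of log2(value + 1), which understates folds of low genes. Background shares are over genes with a mean of at least 50 scaled counts in the libraries compared, a floor that all 44 members passed. A gene was called at 1.2-fold, or by a 95% exact Clopper-Pearson interval. Reads carry no molecular identifiers. The intervals compare 2 libraries and cover counting error only. The difference between times is the mean over siNT, siSET and siCIP2A minus the mean over PBS and OP449. The members, lists, thresholds and functional groups were chosen with earlier results of these data known. All members may be named. Per functional group, the members with the largest and smallest difference were given in every library, together with others chosen after their values were seen (CASC5, TOP2A, MKI67, NUSAP1 and OIP5). Within a time, the 3 highest and 3 lowest were named. Of each other list, up to 4 genes with the largest difference were named. Promoters are RefSeq windows on GRCh38.p14, and transcript lengths come from GENCODE. Scripts were tested on simulated data with 200 changed genes. Python 3.11.15, scipy 1.17.1, R 4.3.3 and edgeR 4.0.16 were used, edgeR in an alternative only.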

Additional observations from a re-analysis of the deposited data

How the results depend on the processing

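The count of members whose siRNA libraries all lay below both 12 h libraries was 41 with a floor of 200 and 42 under each other floor, pseudocount, scaling and transcript choice. Without 1 library it ranged from 42 to 44. Fewer libraries make this rule easier to meet, so that count could only stay or rise, and the range is no check of it. The members at least 1.2-fold lower between times numbered 34 to 38 without 1 library, against 39 with all, and the median difference ranged from -0.42 to -0.34. The count at least 1.2-fold higher was 0 in each of these. Shares over all genes were not computed without 1 library. Thresholds decide the other counts, by construction: at 1.5-fold, 5 members were lower between times (0.886% of all genes), 2 in siNT against PBS (1.4%), 0 in siSET (4.31%) and 1 (STMN1) in siCIP2A against siNT (3.33%), with 0 higher in siSET (2.84%) and 1 (CASC5) higher in OP449 (1.98%). At 2-fold the counts were 0 (0.0985%), 0 (0.148%), 0 (0.789%) and 1 (0.639%), with 0 higher in siSET (0.394%) and 0 in OP449 (0.295%). With the counting interval as the rule, 10 members were lower and 12 higher in siSET, 22 lower in siCIP2A, and 9 lower and 11 higher in OP449. With PBS as the control, siSET had 29 members lower, 0 higher and a median of -0.36, and siCIP2A had 37 lower and a median of -0.43. RACGAP1, higher in siSET than in siNT, stood at -0.076 against PBS, and the cause was not tested. The edgeR test added after seeing the data called 0 members lower between times; it takes its spread from libraries with different treatments. Equal totals, the median of ratios and upper quartiles moved the median of all genes between times to -0.01, -0.00 and -0.01. Of 1408 values of single members under the alternatives, 1322 stayed within their interval or spread and 86 did not. The sign changed in 47, of which 34 had PBS as the control, 24 of them in siSET and 10 in siCIP2A. The other 13 belonged to NCAPD3 between times without OP449 and to rescaled values within a time. Of the 47, only RACGAP1 had been at least 1.2-fold at first. No paired analysis was possible because each group has 1 library and the labels give no replicate numbers. With 1 library per group, differences between cultures cannot be seen at any depth.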
